A study of Rattus norvegicus with 9 samples.

Results

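Oxidative phosphorylation is carried out by 5 protein complexes of the inner mitochondrial membrane, and the genes described here encode their subunits. They were chosen by gene symbol: the Ndufa, Ndufb, Ndufc, Ndufs and Ndufv genes of complex I, Sdha to Sdhd of complex II, Cyc1 and the Uqcr genes of complex III, the Cox4 to Cox8 genes of complex IV and the Atp5 genes of complex V. Assembly factors named Ndufaf and symbols of pseudogenes or numbered copies were left out. The choice gave 78 genes of 22093 with 1 symbol on the array: 35 of complex I, 4 of complex II, 9 of complex III, 15 of complex IV and 15 of complex V. Ndufa4 was counted with complex IV, of which it is known to be a subunit despite its name, and Atp5d is the gene that RefSeq calls Atp5f1d. Of the 78 genes, 74 were bright enough to be tested. Ndufb11b, Cox7b2, Cox8b and Cox8c were not, with mean signals of 3.28, 3.54, 4.09 and 4.58 against a minimum of 4.99 on the log2 scale. Other subunits, such as Cox6b1, Cox7c and Atp5f1c, had no row with a single symbol and were not analysed here.

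The study measured RNA of male rat brain on Clariom D arrays in 9 samples, 3 in each of 3 groups. The groups were parietotemporal cortex of sham rats (Cx_Sham), hippocampus of sham rats (Hp_Sham) and hippocampus of rats that received transcranial focal stimulation (Hp_TFS), all taken from both sides of the brain. TFS passes a current through the scalp, here at 300 Hz and 50 mA for 5 min, with tissue collected 4 h later, and sham rats were handled alike without current. The labels name no strain, age, allele or drug for any group, and stimulated cortex was not analysed here.

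Complex I takes electrons from NADH and complex II from succinate, complex III passes them from ubiquinol to cytochrome c, and complex IV gives them to oxygen. Complexes I, III and IV pump protons as they do so, and complex V, the ATP synthase, uses the resulting gradient to make ATP. Brain tissue depends on this pathway for most of its ATP, and electrical signalling is among the processes that use most of it. Several subunits of complex IV exist as isoforms, a common one and one best known from muscle, lung or testis, and some subunits of every complex but the second are encoded by mitochondrial DNA, which is not part of the genes chosen.

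Promoter sequences are given for 5 subunits on which the results turn. Cox6a2, Ndufs3 and Atp5pf were called lower in hippocampus than in cortex in the main fit, which did not pair arrays. Sdha and Cox8a had the smallest p-values after TFS. Each sequence is the RefSeq strand of the gene on GRCr8, from 250 bases before to 50 bases after the annotated start, and capitals mark matches to the motifs named below.
Cox6a2, chr1:192219667-192219966, minus strand: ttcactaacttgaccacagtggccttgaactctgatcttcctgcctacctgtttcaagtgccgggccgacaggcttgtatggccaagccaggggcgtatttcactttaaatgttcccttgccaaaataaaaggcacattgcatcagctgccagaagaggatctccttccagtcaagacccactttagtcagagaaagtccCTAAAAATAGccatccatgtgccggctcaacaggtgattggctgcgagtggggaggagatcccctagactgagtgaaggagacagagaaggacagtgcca
Ndufs3, chr3:97339605-97339904, minus strand: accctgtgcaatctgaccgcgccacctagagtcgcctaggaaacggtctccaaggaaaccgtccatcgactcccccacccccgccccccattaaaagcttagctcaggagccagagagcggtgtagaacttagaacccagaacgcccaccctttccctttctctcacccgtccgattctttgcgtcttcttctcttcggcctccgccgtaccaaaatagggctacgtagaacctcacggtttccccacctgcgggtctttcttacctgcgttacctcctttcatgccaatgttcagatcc
Atp5pf, chr11:37375052-37375351, minus strand: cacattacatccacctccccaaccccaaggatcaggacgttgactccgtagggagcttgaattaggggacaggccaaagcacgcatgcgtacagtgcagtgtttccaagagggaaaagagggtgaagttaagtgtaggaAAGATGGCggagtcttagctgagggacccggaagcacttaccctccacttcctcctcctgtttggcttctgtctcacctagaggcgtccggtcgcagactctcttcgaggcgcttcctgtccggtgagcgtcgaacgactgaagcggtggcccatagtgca
Sdha, chr1:30764303-30764602, plus strand: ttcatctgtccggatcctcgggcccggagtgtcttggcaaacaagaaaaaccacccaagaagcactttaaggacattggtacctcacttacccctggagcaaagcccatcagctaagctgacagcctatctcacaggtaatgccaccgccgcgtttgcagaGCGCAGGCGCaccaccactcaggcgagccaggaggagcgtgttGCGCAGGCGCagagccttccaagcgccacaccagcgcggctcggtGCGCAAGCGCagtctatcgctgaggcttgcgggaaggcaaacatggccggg
Cox8a, chr1:213833574-213833873, minus strand: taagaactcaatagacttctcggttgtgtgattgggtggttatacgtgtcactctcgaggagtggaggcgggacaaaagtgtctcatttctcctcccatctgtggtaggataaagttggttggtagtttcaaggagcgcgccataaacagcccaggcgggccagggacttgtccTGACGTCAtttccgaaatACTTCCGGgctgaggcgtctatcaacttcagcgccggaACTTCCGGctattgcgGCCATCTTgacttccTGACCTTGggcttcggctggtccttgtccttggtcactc

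Both strands of all windows were searched for motifs of factors known to act on nuclear genes of the respiratory chain: NRF1 (GCGCA and GCGC with any 1 base between), GABP, also called NRF2 (CCGGAAGT), CRE (TGACGTCA), YY1 (AAGATGGC) and the oestrogen-related receptors, ERR (CAAGGTCA). MEF2 (CTA and TAG with any 4 bases between), a factor known for muscle and neuronal genes, was searched as well. Of the 78 genes 69 had a window. The NRF1 letters stood in 12 of the 69 (17.4%) and in 4.71% of all 27457 windows, the YY1 letters in 14 (20.3%) and in 3.44% of all windows, and the GABP letters in 7 (10.1%) and in 4.01% of all. The MEF2 letters stood in 2 of the 69 windows (2.90%), those of Cox6a2 and Cox5b, against 3.83% of all windows. CRE and ERR letters stood in 4 windows each (5.80%), against 1.91% and 1.48% of all. The Cox6a2 window held a MEF2 match starting at position -50 and no match to the other 5 motifs, whereas the Sdha window held 3 NRF1 matches, at -89, -46 and -1. Cox8a held 2 GABP matches, at -58 and -20, and 1 match each to CRE, YY1 and ERR, Atp5pf held a YY1 match at -111, and Ndufs3 held none of the motifs. No matches overlapped in these 5 windows. The median GC content was 56.0% in the windows of the subunits and 52.3% in all windows, and a match describes letters in this window only.

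Array medians lay between 4.95 and 5.04, and positive control probe sets lay 3.67 to 4.0 log2 units above negative ones. A limit of 7.57, under which 95% of negative control probe sets lay, marks the background range here: 55 of the 78 subunits were above it in every group, 22 were below it in every group, and Atp5d crossed it. The number of arrays limits the precision. Whether every array holds RNA of its own rat is not in the labels, so the p-values cover the variation among these samples, which may be technical. Median polish, a step of RMA, can give a gene the same value on several arrays, and 48 of the 78 subunits had a value shared by at least 3 arrays. An interval made from such values can be too narrow. RefSeq names a copy or pseudogene of 41 of the subunits, whose probes may also read the copy. Of 9 tested hippocampus markers 5 were called higher in hippocampus, with 2 of the 9 below 0 (lowest -0.53). Of 11 cortex markers 7 were called lower and 1 higher. Of all genes 5.99% were called higher and 6.46% lower. Prox1 of the dentate gyrus differed by 1.89 between hippocampus and cortex (SE 0.063) and Tbr1 of the cortex by -1.20 (SE 0.10), with limma adjusted p = 1.82e-05 and adjusted p = 3.93e-04. In whole tissue, fewer cells of a type and less RNA per cell cannot be told apart.

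The spread among arrays of a group was small for the subunits. The median SD within groups, pooled over the 3 groups, was 0.045 log2 units for the 74 subunits, 0.055 for all 15522 genes tested and 0.062 for the 4466 genes above the background limit. The SD was lowest on the stimulated arrays, with a median of 0.017 for the subunits and 0.035 for the genes above the limit. Averaged over all 74 subunits, the deviation from each gene's mean over 9 arrays was 0.0048, 0.0055 and 0.0066 on the 3 Hp_TFS arrays. It was -0.045, -0.013 and 0.0039 on the Hp_Sham arrays and -0.018, 0.030 and 0.025 on the Cx_Sham arrays. The first array of both sham groups thus lay lowest in its group, and Hp_Sham 1 alone held the lowest value for 25 of the 74 subunits (33.8%) and for 24.5% of genes above the limit.

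**Figure D1:**
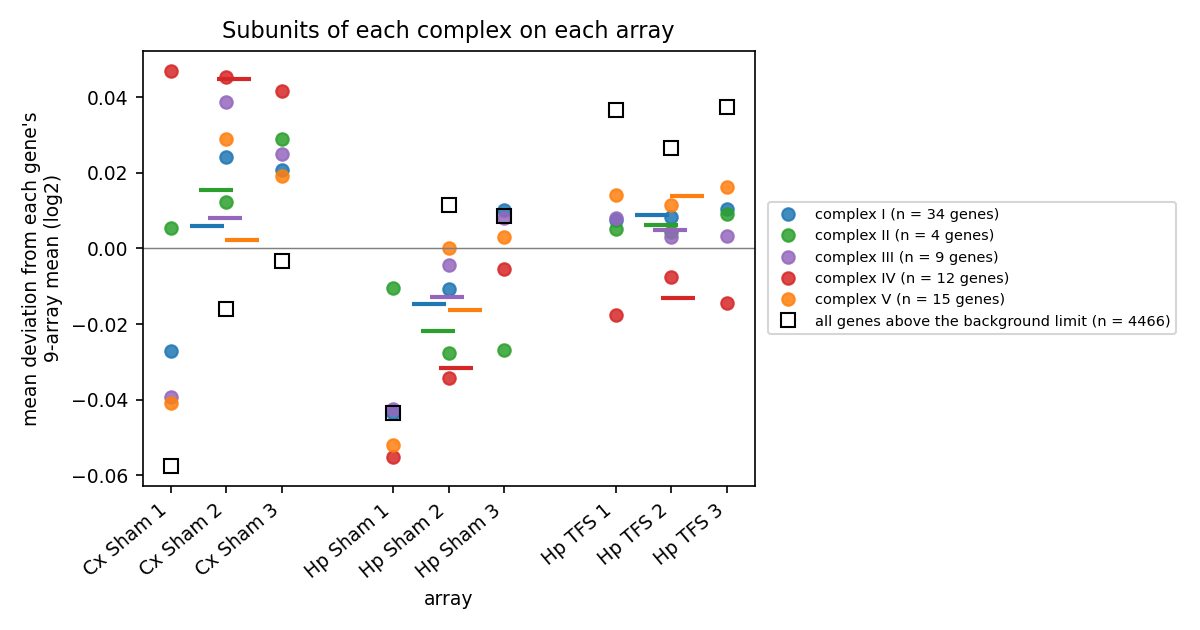
Mean deviation, in log2 units, of the tested subunits of each complex from each gene's mean over 9 arrays, by array; horizontal bars are group means and open squares are all genes above the background limit. The Hp_TFS arrays lie close together for every complex, Hp_Sham 1 is the lowest array of its group for every complex but II, and complex IV, which includes Cox6a2, is highest on the 3 Cx_Sham arrays.

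Between hippocampus and cortex of sham rats, 3 of the 74 tested subunits were called in the main fit, which did not pair arrays. All were lower in hippocampus: Ndufs3 by 1.10-fold, Atp5pf by 1.07-fold and Cox6a2, whose signal was lower by 1.44-fold. With the array number as a block in the 6 sham arrays, which pairs them, 0 subunits and 6.33% of all genes were called. Every Cox6a2 level was under the background limit, so its signal difference does not measure a ratio of transcript. The test of the main fit was limma over all genes, with p-values adjusted by Benjamini-Hochberg and a threshold of 0.05. It called 12.4% of all genes, 5.99% higher and 6.46% lower, so the 4.05% of subunits called is below the background share. Below 0 lay 53 of 74 subunits (71.6%), 52.9% of all genes and 47.0% of genes above the background limit. The median difference of the subunits was -0.031, beside -0.0044 for all genes and 0.0073 for genes above the limit. It was -0.015 without Cx_Sham 2 and -0.0097 over the 29 subunits with no value shared by 3 or more arrays. Arrays did not overlap for 14 subunits, 2 higher (Ndufa5 and Atp5pd) and 12 lower in hippocampus, a share of 18.9% where 24.1% of all genes did not overlap, 11.4% higher and 12.7% lower. An unadjusted p under 0.05 was reached by 16 subunits, 3 of them higher and 13 lower, and by 25.6% of all genes, 12.4% higher and 13.3% lower.

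The differences were small in most subunits. The 95% confidence interval stayed under 1.2-fold on both sides of 0 for 70 of 74 subunits (94.6%), for 74.1% of all genes and for 64.0% of genes above the limit. Shared values can make these intervals too narrow, and of the 29 subunits with no value shared by 3 or more arrays 25 (86.2%) stayed under it. The other 4 of the 74 were Cox6a2, Uqcr10, Ndufa1 and Atp5mk, and Cox6a2 alone had an estimate beyond 1.2-fold. The number of subunits called was 5 with the array number as a block in all 9 arrays, 1 of them, Ndufa5, higher. That fit also joins TFS and sham arrays of like number, where no pairing was seen. With the block in the 6 sham arrays the number was 0, and all genes gave 982 calls in place of 1931. It was 1 in the 6 sham arrays without a block, 9 after quantile normalization, 0 without Hp_Sham 2 and 1, Ndufa6, without both sham arrays numbered 1. Without Cx_Sham 2 it was 6, of which 3, Atp5mc2, Ndufa11 and Uqcr10, were higher. Of all genes 7.80% were called in the 6 sham arrays alone, 14.0% after quantile normalization and 12.4% with the block in all 9 arrays. For the fits with arrays left out that share is not given here.

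**Figure D2:**
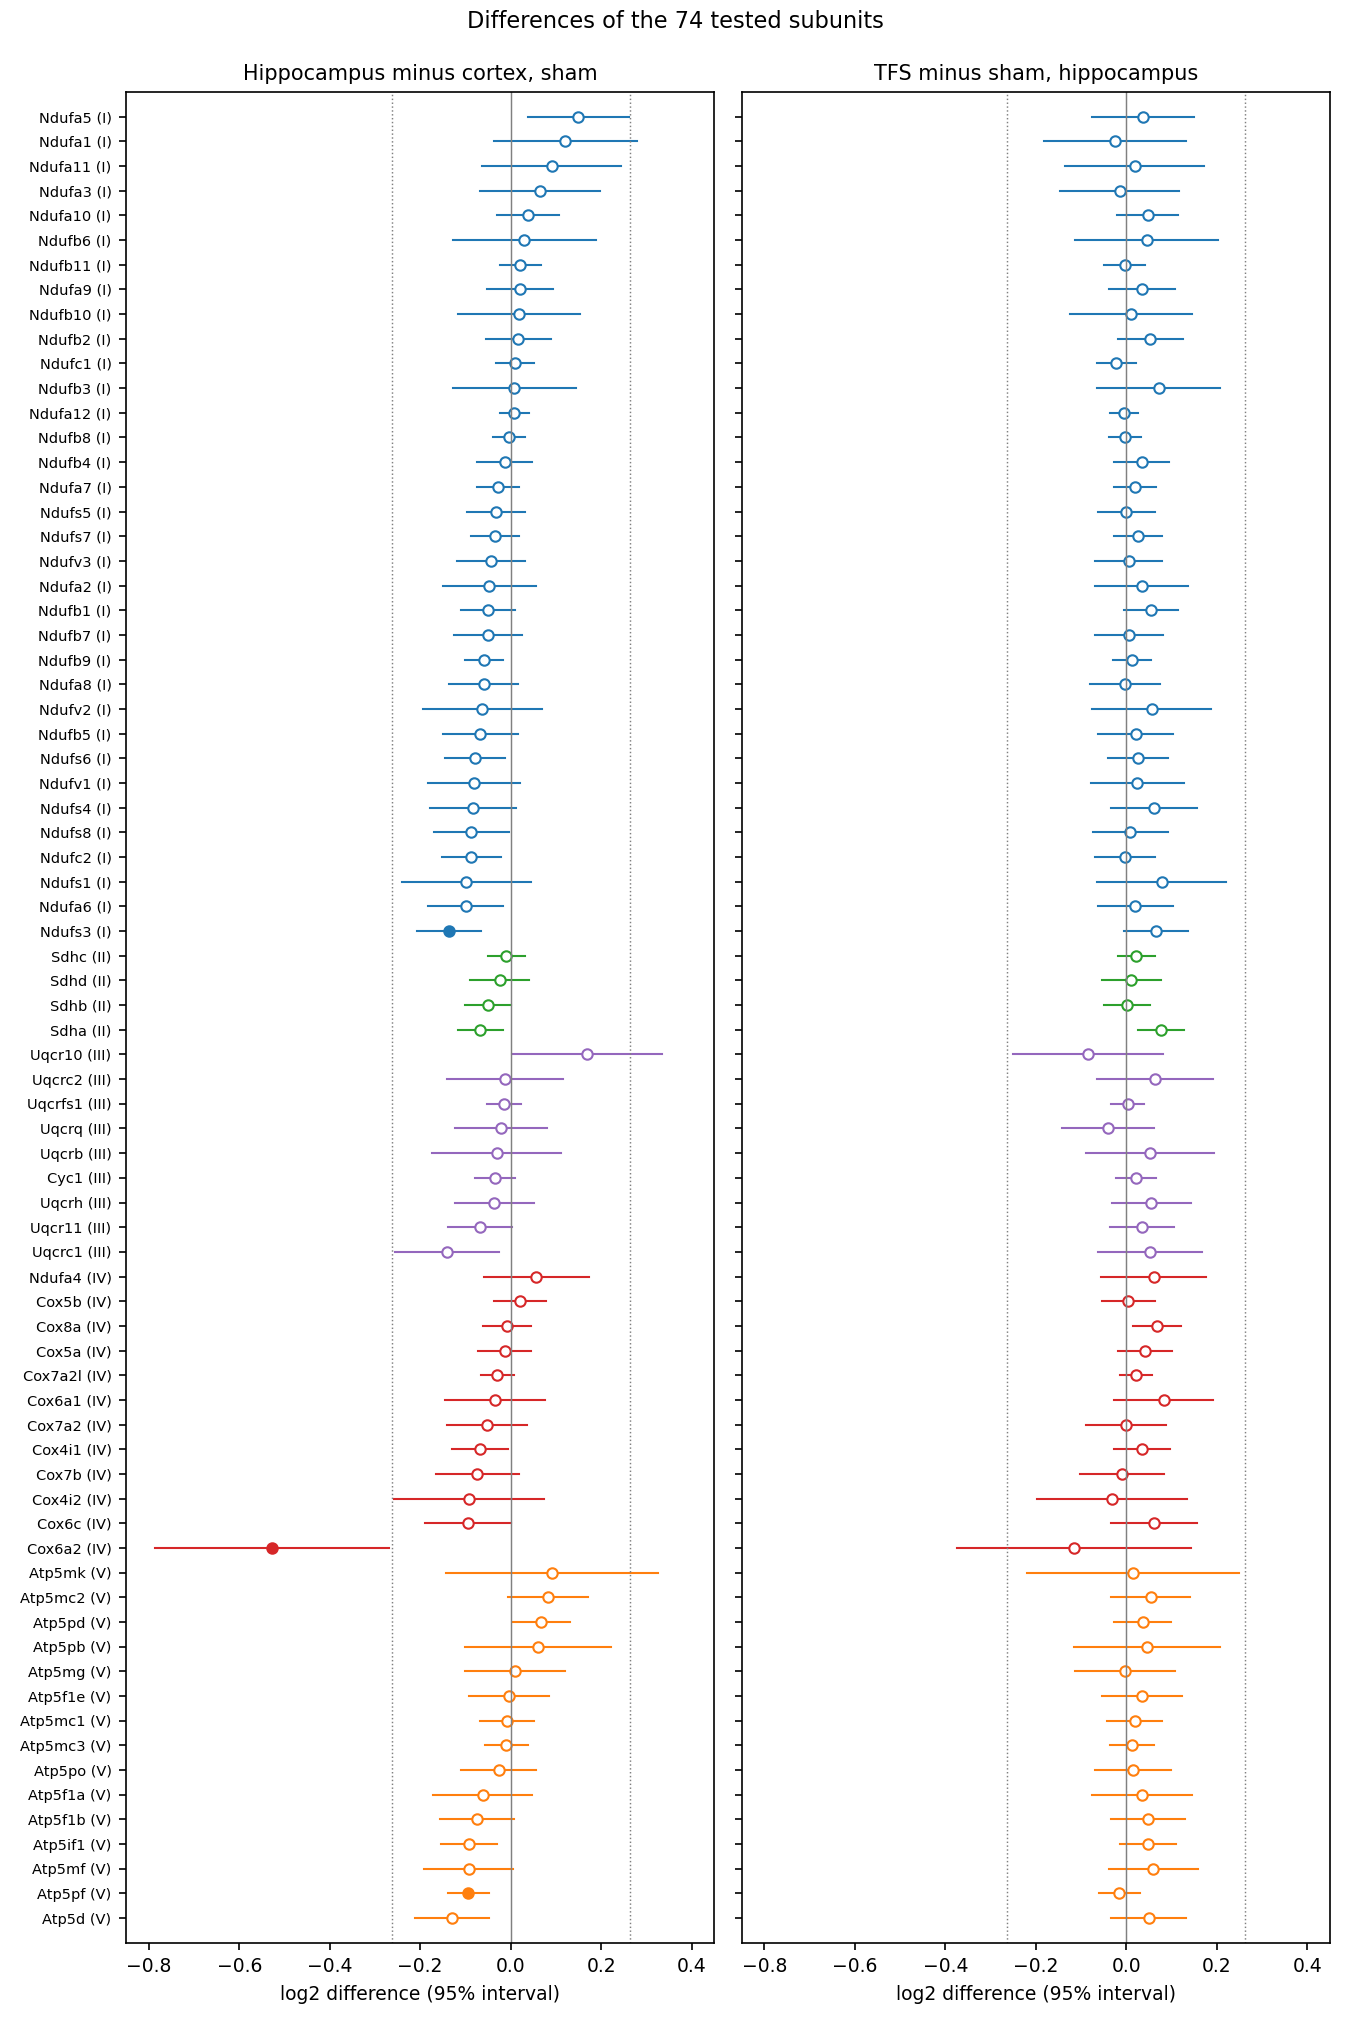
Log2 difference of each of the 74 tested subunits with its 95% interval, by complex; filled points have an adjusted p under 0.05 and dotted lines mark a 1.2-fold difference. Only Cox6a2 lies beyond 1.2-fold, in the left panel, and no point is filled in the right panel, where most lie above 0; that side turns under quantile normalization, with 27 of 74 above 0.

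Cox6a2 encodes the isoform of complex IV subunit 6a best known from heart and skeletal muscle, and in mouse it is also known from parvalbumin interneurons. Its signal was 6.96, 6.49 and 6.79 on the Cx_Sham arrays, 6.15, 6.26 and 6.25 on the Hp_Sham arrays and 6.11, 6.18 and 6.02 on the Hp_TFS arrays. All cortical arrays lay above all hippocampal ones, and those of sham and stimulated hippocampus overlapped. The difference between regions was -0.53 (SE 0.11, limma adjusted p = 0.0199), and that between TFS and sham was -0.12 (SE 0.11, limma adjusted p = 0.925). The call held in 12 of 19 alternatives, with differences from -0.66 to -0.39 and adjusted p from 0.0018 to 0.128. It was lost without Cx_Sham 3 (adjusted p = 0.0615), without Hp_Sham 1, 2 or 3 (adjusted p = 0.0649, 0.0593 and 0.0617) and without both sham arrays numbered 1 (adjusted p = 0.111). It was also lost in the 6 sham arrays alone (adjusted p = 0.0756) and with the block in them (adjusted p = 0.128), and it could not be made under the stricter filter, which left Cox6a2 out.

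The common isoform Cox6a1 measured 10.87, 10.89 and 10.76 on the cortical arrays and 10.86, 10.72 and 10.83 on the hippocampal sham arrays. These overlapped, with a difference of -0.035 (SE 0.047, limma adjusted p = 0.688). All 8 listed markers of inhibitory neurons also had values below 0 between hippocampus and cortex, as did 52.9% of all genes. Called lower were 3 of the 8, where 6.46% of all genes were. They were Vip at -1.02, Sst at -0.64 and Pvalb at -0.62 (limma adjusted p = 2.50e-05, 2.22e-04 and 0.0358). The mean level of the 8 markers was 8.17 to 8.29 on cortical and 7.78 to 7.93 on hippocampal sham arrays. Pvalb, the parvalbumin gene, was 8.02, 7.40 and 7.65 on the cortical and 7.17, 7.08 and 6.97 on the hippocampal sham arrays. Cx_Sham 2 was the lowest cortical array for both Pvalb and Cox6a2. In hippocampus the array orders differed. Among the Hp_Sham arrays, number 1 was highest for Pvalb (7.17) and lowest for Cox6a2 (6.15). Among the Hp_TFS arrays, number 3 was highest for Pvalb (7.17) and lowest for Cox6a2 (6.02). All 4 smooth muscle markers were also below 0, 2 of them with non-overlapping arrays, where 12.7% of all genes were lower without overlap. By limma 0 were called, and 1, Acta2 at -0.67, had an unadjusted p under 0.05. Of all genes 13.3% were lower at that p. The mean level of the 4 smooth muscle markers was 6.24 to 6.77 on cortical and 6.02 to 6.21 on hippocampal sham arrays, with Cx_Sham 2 the highest for Acta2 at 8.37. The part of either cell type in the Cox6a2 difference was not tested.

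**Figure D3:**
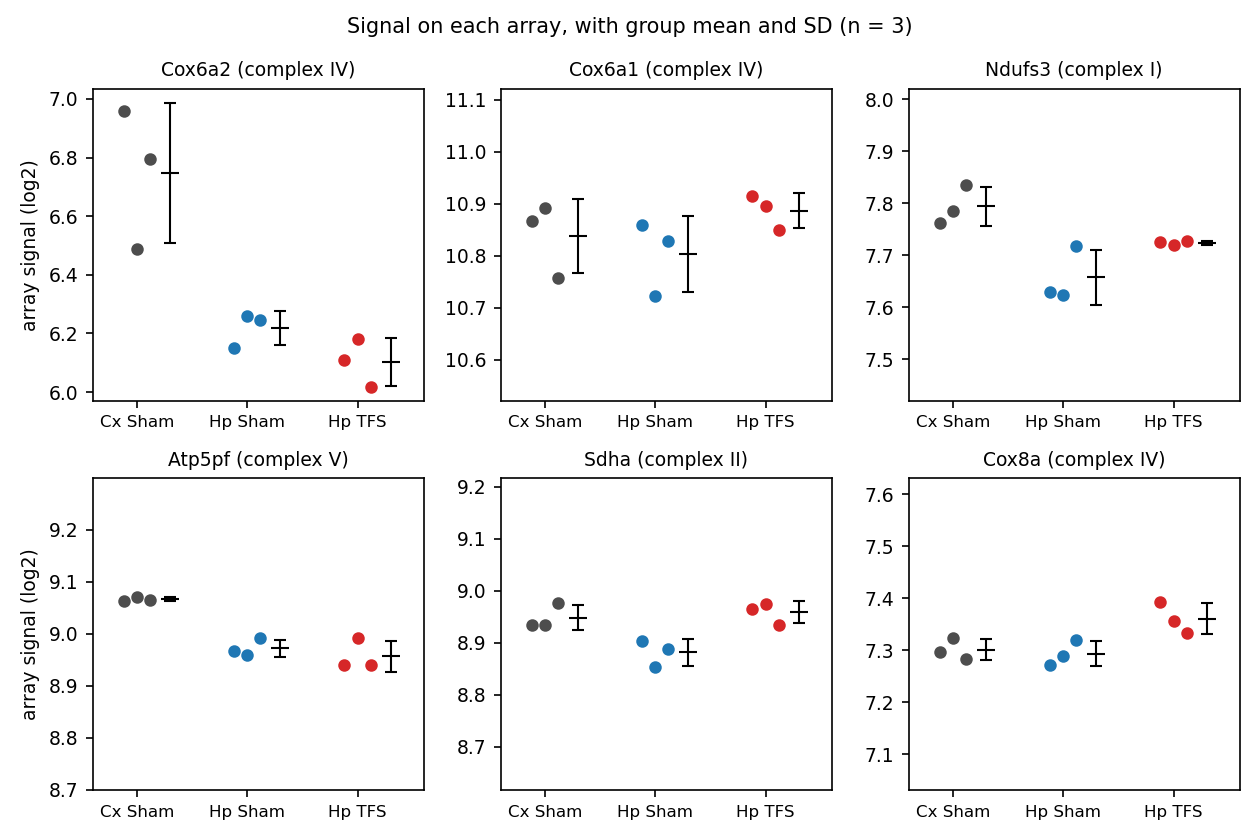
Log2 array signal of 6 subunits on each of the 9 arrays, with the mean and SD of each group of 3; the axes of the panels start at different values. Cox6a2 is higher on the 3 cortical arrays than on the 6 hippocampal ones, whereas Cox6a1 overlaps between regions, and Sdha and Cox8a lie higher on all Hp_TFS than on all Hp_Sham arrays.

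Among the other isoforms of complex IV, Cox4i2, the form of subunit 4 known from lung, differed by -0.093 between regions (SE 0.071, limma adjusted p = 0.463), and its common partner Cox4i1 by -0.068 (SE 0.026, limma adjusted p = 0.155). The untested forms Cox8b of heart muscle, Cox8c of testis and Cox7b2 of testis gave -0.21, -0.088 and 0.071 with overlapping arrays. The common forms Cox7a2, Cox7b and Cox8a differed by -0.053, -0.073 and -0.0079. All 5 common forms had values below 0, none past the test in the main fit. Cox4i1 was called after quantile normalization (limma adjusted p = 0.0349). Ndufa4 had the highest value of the tested complex IV genes, at 0.057 with overlapping arrays. The median of the 12 tested complex IV genes was -0.044, the lowest of the 5 complexes, and -0.019 without Cx_Sham 2.

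Complex I held the second call. Ndufs3, a core subunit of the arm that reaches into the matrix, was 7.76, 7.79 and 7.84 on the cortical arrays, 7.63, 7.62 and 7.72 on the hippocampal sham arrays and 7.73, 7.72 and 7.73 after TFS. No hippocampal array reached the lowest cortical one, and the difference between regions was -0.14 (SE 0.030, limma adjusted p = 0.0250). Across 20 alternatives the call held in 13, with adjusted p from 0.0106 to 0.0938. It was lost without Cx_Sham 3, Hp_Sham 1 or Hp_Sham 2 (adjusted p = 0.0635, 0.0702 and 0.0867), and without both sham arrays numbered 1 (adjusted p = 0.0866). It was also lost with array weights (adjusted p = 0.0587), in the 6 sham arrays alone (adjusted p = 0.0938) and with the block in them (adjusted p = 0.0537). All 6 core subunits measured, which carry the flavin and the iron-sulfur clusters or the quinone site, had values below 0 under each scaling tried, from -0.14 to -0.034 with a median of -0.084. They were Ndufs1, Ndufs3, Ndufs7, Ndufs8, Ndufv1, which binds NADH, and Ndufv2, and 1 of the 6 was called. Their mean level was 8.31 to 8.41 on cortical and 8.22 to 8.30 on hippocampal sham arrays. The 28 accessory subunits tested spread around 0, with 13 above and 15 below and a median of -0.0078. Ndufa5 had the highest value of complex I, at 0.15 (SE 0.048, limma adjusted p = 0.0945, and adjusted p = 0.0281 with the block in all 9 arrays), and Ndufa6 the lowest of the accessory subunits, at -0.099 (SE 0.036, limma adjusted p = 0.129). Ndufc2 and Ndufb9, at -0.087 and -0.059, had hippocampal arrays below all cortical ones without a call. Ndufc2 was called with the block in all 9 arrays (adjusted p = 0.0327), and both were called after quantile normalization (adjusted p = 0.0349 and 0.0363).

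Complexes II and III had no call in the main fit. In complex II, Sdha, the flavoprotein that oxidises succinate, differed by -0.067 (SE 0.022, limma adjusted p = 0.0967) and Sdhb, which carries the iron-sulfur clusters, by -0.049 (SE 0.022, limma adjusted p = 0.206), both with non-overlapping arrays. The membrane anchors Sdhc and Sdhd lay at -0.0093 and -0.024. In complex III the core protein Uqcrc1 had the lowest value at -0.14 (SE 0.049, limma adjusted p = 0.118). After quantile normalization Uqcrc1 was called (limma adjusted p = 0.0275). The small subunit Uqcr10 had the highest value at 0.17 (SE 0.071, limma adjusted p = 0.185). Uqcr10 was 8.36, 8.55 and 8.27 on cortical and 8.47, 8.59 and 8.63 on hippocampal sham arrays, which overlap through Cx_Sham 2, and without that array it was called (0.25, limma adjusted p = 0.0224). Cyc1 and the Rieske protein Uqcrfs1, which carry electrons through the complex, lay at -0.035 and -0.015.

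In complex V the peripheral stalk, which holds the catalytic head still, was split. Atp5pf, its coupling factor 6, was 9.06, 9.07 and 9.06 on cortical, 8.97, 8.96 and 8.99 on hippocampal sham and 8.94, 8.99 and 8.94 on stimulated arrays. The 3 cortical values lay above the 6 hippocampal ones, and the region difference was -0.094 (SE 0.019, limma adjusted p = 0.0186). It was called in 16 of 20 alternatives, with adjusted p from 0.0144 to 0.0913, and was lost without Hp_Sham 2 (adjusted p = 0.0659), without both sham arrays numbered 1 (adjusted p = 0.0913), with array weights (adjusted p = 0.0528) and with the block in the 6 sham arrays (adjusted p = 0.0878). Atp5pd, subunit d of the same stalk, gave 0.068 in the other direction with non-overlapping arrays (SE 0.027, limma adjusted p = 0.161), Atp5pb gave 0.061 and Atp5po -0.027. The 4 head subunits measured had values from -0.13 to -0.0030, the lowest being the delta subunit Atp5d (SE 0.035, limma adjusted p = 0.0552) and the next the catalytic beta subunit Atp5f1b at -0.074 (SE 0.035, limma adjusted p = 0.242). After median centring 1 of these 4 lay above 0. Atp5if1, the inhibitor that stops ATP hydrolysis, gave -0.091 (SE 0.027, limma adjusted p = 0.0684), and was called after quantile normalization (limma adjusted p = 0.0484). The 3 genes for subunit c, which encode the same mature protein, gave 0.082 for Atp5mc2 and -0.0081 and -0.0097 for Atp5mc1 and Atp5mc3, and the small membrane subunit Atp5mk gave 0.091 (SE 0.10), with 0.0071 to 0.20 when single arrays were left out. The median of the 15 complex V genes was -0.0097. It was -0.045 without Cx_Sham 1, 0.00089 without Cx_Sham 2 and 0.029 over those with no value shared by 3 or more arrays.

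Set against the genes above the background limit on the same array, the mean deviation of the 74 subunits was 0.040, 0.046 and 0.028 on the Cx_Sham arrays. It was -0.0017, -0.024 and -0.0046 on the Hp_Sham arrays and -0.032, -0.021 and -0.031 on the Hp_TFS arrays. All cortical arrays lay above all hippocampal ones, and sham and stimulated hippocampus overlapped. This order depended on the reference. Set against all genes tested, the 74 subunits gave -0.00041, 0.030 and 0.020 on the Cx_Sham arrays, -0.033, -0.0058 and 0.0018 on the Hp_Sham arrays and -0.0083, -0.0072 and 0.0031 on the Hp_TFS arrays, so that Cx_Sham 1 lay below Hp_Sham 3 and Hp_TFS 3. The 55 subunits above the limit, set against genes above it, gave 0.025 to 0.043 on cortical arrays and -0.027 to -0.00035 on hippocampal ones. The low deviation of Hp_Sham 1 was close to that of the genes above the limit on the same array, at -0.045 and -0.043.

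**Figure D4:**
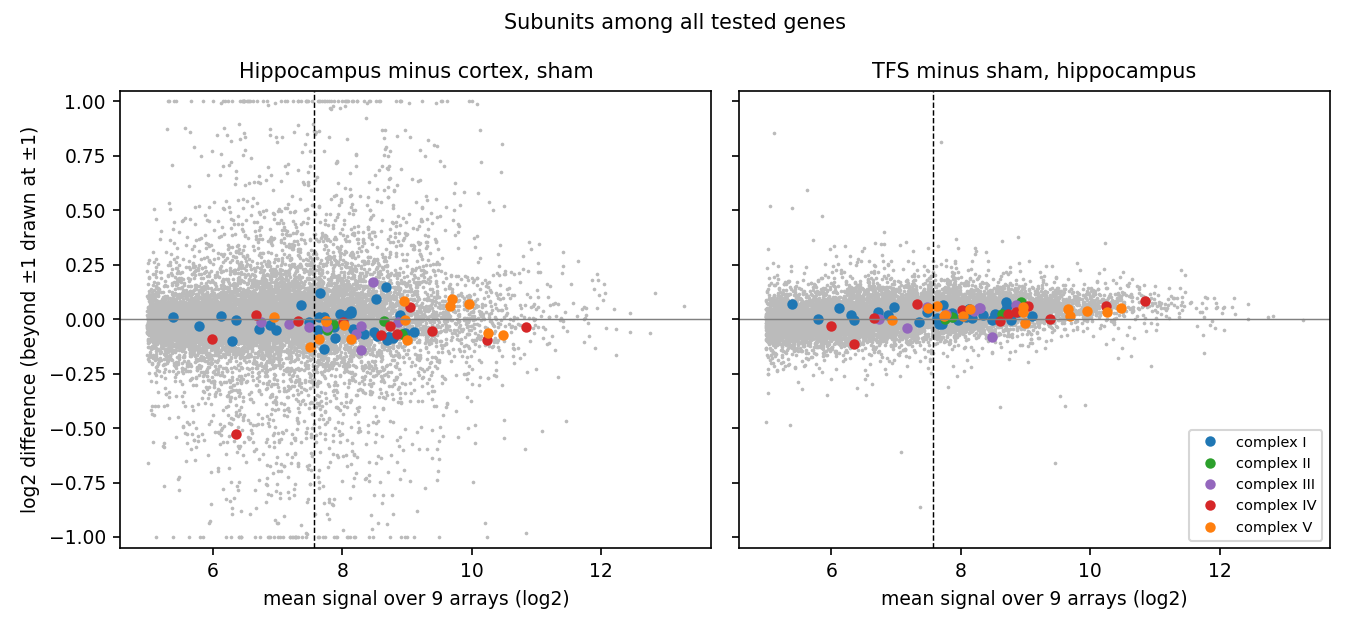
Log2 difference against mean log2 signal for all 15522 tested genes (grey) and the subunits of each complex (coloured), with the background limit of 7.57 dashed; differences beyond 1 are drawn at 1. The subunits lie close to 0 among genes of like signal in both comparisons, and Cox6a2 lies apart in the left panel, below the limit.

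After TFS 0 of 74 subunits passed the limma test, as did 0.0% of all genes. At an unadjusted p under 0.05 there were 2, Sdha and Cox8a, both higher, a share of 2.70% where 5.19% of all genes were, 4.37% higher and 0.812% lower. Differences ran from -0.12 for Cox6a2 to 0.083 for Cox6a1, and the 95% confidence interval lay within 1.2-fold for 73 of 74 subunits (98.6%), for 87.5% of all genes and for 84.9% of genes above the limit. Cox6a2 was the exception, with an interval from -0.37 to 0.14. Of the 29 subunits with no value shared by 3 or more arrays, 28 (96.6%) had an interval within 1.2-fold. Above 0 lay 58 of 74 subunits (78.4%), 61.3% of all genes and 81.8% of genes above the limit. The median of the subunits was 0.023, beside 0.011 for all genes and 0.039 for genes above the limit. After quantile normalization the median turned to -0.013 with 27 of 74 above 0, and after median centring it was 0.0085 with 46 above 0.

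The stimulated and sham hippocampal arrays did not overlap for 6 subunits, all higher after TFS, a share of 8.11% where 9.77% of all genes did not overlap, 8.57% higher and 1.2% lower. Sdha was 8.97, 8.98 and 8.94 on the Hp_TFS arrays and 8.90, 8.85 and 8.89 on the Hp_Sham arrays. The difference was 0.077 (SE 0.022, unadjusted p = 0.00839, limma adjusted p = 0.803). The stimulated arrays lay in the range of the cortical sham arrays, at 8.94, 8.94 and 8.98. Cox8a, the common form of a small complex IV subunit, was 7.39, 7.36 and 7.33 after TFS and 7.27, 7.29 and 7.32 in sham hippocampus, a difference of 0.067 (SE 0.023, unadjusted p = 0.0189, limma adjusted p = 0.904), with all levels below the background limit. The other 4 were Ndufs3 at 0.067, Uqcrh at 0.055, Atp5mc2 at 0.054 and Ndufa10 at 0.047, all with limma adjusted p = 0.923.

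By complex the median after TFS was 0.021 for complex I, 0.017 for II, 0.036 for III, 0.028 for IV and 0.035 for V. Each turned below 0 after quantile normalization, to between -0.021 and -0.0025. In complex I the core subunits gave 0.0085 to 0.078, highest for Ndufs1, whose Hp_Sham arrays were 8.49, 8.71 and 8.71 against 8.72, 8.71 and 8.71 after TFS. The difference of Ndufs1 thus came with 1 low array and was 0.0048 without Hp_Sham 1. Ndufb3, an accessory subunit below the background limit, gave 0.072 and 0.016 without Hp_Sham 1, and Ndufa1 and Ndufc1 gave -0.024 and -0.022. Uqcrc2 of complex III gave 0.063 and 0.0011 without Hp_Sham 1, and Uqcr10 and Uqcrq gave -0.084 and -0.041. In complex IV, Cox6a1 gave 0.083 (SE 0.047), Cox4i1 0.035, Cox7a2 -0.00030, Cox7b -0.0091 and Cox4i2 -0.031. In complex V, Atp5mf gave 0.060, Atp5if1 0.048, Atp5mg -0.0035 and Atp5pf -0.015. Ndufs5 had 5.78 on 8 of 9 arrays and a difference of 0.

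The counts that follow stand beside 12.4% of all genes called between regions and 25.6% at an unadjusted p under 0.05. Of 13 complex I assembly factors 0 were called between regions by limma, with 1 at an unadjusted p under 0.05, and all had means below the background limit. Of 28 assembly factors of the other complexes 1 was called lower in hippocampus, Atpaf1, which helps build the head of complex V, at -0.081 (SE 0.021, limma adjusted p = 0.0478). Among 12 genes of cytochrome c, ubiquinone synthesis and related factors, and among 12 of the citric acid cycle, 0 were called by limma and 1 of each had an unadjusted p under 0.05, Coq7 at -0.11 and Ogdh at -0.052. Of 26 genes of the large mitochondrial ribosomal subunit 1 was called, Mrpl38 at -0.14 (limma adjusted p = 0.0345). Of 18 mitochondrial carriers and outer membrane proteins 0 were called by limma, while 1 higher and 4 lower had an unadjusted p below 0.05.

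In lists of genes for fuel entry and mitochondrial number, 2 of 12, 3 of 16 and 2 of 13 were called between regions. Each share was somewhat above the 12.4% of all genes, in lists of few genes. Pdp1, the phosphatase that switches pyruvate dehydrogenase on, was lower in hippocampus by -0.33 (SE 0.062, limma adjusted p = 0.0125), and Pdk1, a kinase that switches it off, by -0.21 (SE 0.047, limma adjusted p = 0.0246), 2 of 12 genes of that list. Another such kinase, Pdk2, gave 0.16 in the other direction with non-overlapping arrays (limma adjusted p = 0.0910). In glycolysis Pfkp and Ldhb were lower (-0.37 and -0.19) and Pfkl higher (0.44), 3 of 16 called. Of 13 regulators of mitochondrial biogenesis 2 were lower, the nuclear receptor gene Esrrg at -0.35 (SE 0.074, limma adjusted p = 0.0191) and the coactivator gene Ppargc1b at -0.23 (SE 0.046, limma adjusted p = 0.0160). The related coactivator Ppargc1a gave -0.16 with non-overlapping arrays (limma adjusted p = 0.0849). After TFS 0 genes of these lists were called by limma. All 16 glycolysis genes had values above 0, with a median of 0.072 and 8 at an unadjusted p under 0.05, among them Pgk1 at 0.069, Gpi at 0.12 and Pkm at 0.082. Of all genes 5.19% reached that p, 4.37% higher. All 16 were above the background limit. Of the 4466 genes above it 447 were higher at that p, 81.8% lay above 0, and the median was 0.039. After quantile normalization 13 of 16 stayed above 0 with a median of 0.023. Of 12 citric acid cycle genes 11 were above 0, with Idh3a at 0.091, and 7 after quantile normalization.

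Among markers of other cell types the counts called between regions were 0 to 2 in each list below, where 12.4% of all genes were called. Of all genes 46.6% lay above 0. At an unadjusted p under 0.05, 12.4% of all genes were higher in hippocampus and 13.3% lower. The choroid plexus gene Ttr was higher in hippocampus by 3.30 (limma adjusted p = 0.0161), 1 of 7 tested genes of its list called. All 7 lay above 0, and 3 were higher at an unadjusted p under 0.05. List means were 5.54 to 5.62 on cortical and 6.24 to 6.88 on hippocampal sham arrays. The oligodendrocyte gene Mobp was higher by 0.44 (limma adjusted p = 0.0183), 1 of 7 called, with list means of 8.31 to 8.72 and 8.76 to 8.89. All 7 oligodendrocyte markers lay above 0, with a median of 0.39, and 6 were higher at an unadjusted p under 0.05. Astrocyte Gja1 was higher (0.22) and endothelial Cldn5 lower (-0.19), 1 of 8 and 1 of 7 called. Of the 8 astrocyte markers 4 were higher at an unadjusted p under 0.05, and 2 lay below 0 (lowest -0.24). Of the 7 endothelial and pericyte markers 3 were lower at that p, and 2 lay above 0. Of 10 general neuron markers 2 were called higher, Nefl and Stmn2, while 6 lay below 0, 3 of them at an unadjusted p under 0.05, Snap25 at -0.10 among them. Of 8 microglia markers 0 were called by limma or had an unadjusted p under 0.05. The red blood cell gene Hbb-b1 ran from 8.63 to 10.51 on the Hp_Sham arrays, and 0 of 5 genes of that list were called by limma or had an unadjusted p under 0.05 in either comparison. The part of these markers in the differences of the subunits was not tested.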

How the data were processed

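RNA of 9 rat brain samples was measured on Clariom D arrays. The authors deposited log2 values, 1 for each transcript cluster and array. Per the submitters' processing notes the tools were RMA and limma, with no version or order. Build and annotation version: not given in the sources used here. RMA summarises probes by median polish, which can give several arrays the same value.

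Control rows (1738) were left out. The platform annotation gave 1 symbol for 23446 of 68842 rows, several for 505 and none for 44891, and for genes with several rows the brightest was used. A gene was tested if its mean reached 4.99, the median over row means, which left 15522 genes. One limma fit (lmFit and eBayes, limma 3.58.1, R 4.3.3, tested on simulated data) held a mean for each of 3 groups on 9 arrays, with two-sided contrasts of Hp_Sham minus Cx_Sham and Hp_TFS minus Hp_Sham, adjusted by Benjamini-Hochberg over all tested genes at 0.05. Both comparisons share the Hp_Sham arrays, so values are given side by side and not correlated. With 3 arrays a side, an exact test reaches p = 0.1 at the lowest. Positions come with the RefSeq promoter table (GRCr8) alone.

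Pairing by array number was checked from deviations from group means. Cortical and hippocampal sham arrays of like number correlated across genes at 0.416, 0.202 and 0.252, and unlike numbers at -0.291 to 0.0604, partly by construction. The sham arrays numbered 1 also had the smallest distance of positive from negative control probe sets, at 3.67 and 3.73. The like numbers were taken to pair the sham arrays, and fits with the number as a block are given beside the region counts. TFS and sham arrays of like number gave -0.111, -0.287 and -0.025, so no pairing was used there.

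The members and the gene lists were chosen with earlier results of these data known. Genes named are those past the threshold, the 2 largest differences in each direction per complex and comparison, the complex IV isoforms, Atp5if1 and up to 3 genes of smallest p per list; members beyond these were named after their values were seen. Alternatives were other filters, the mean of all rows, median centring, quantile normalization, a fit of the 6 arrays compared, trend and robust options, array weights, the block, leaving out each array, and Ndufa4 with complex I. Dropping both sham arrays numbered 1, dropping members with values shared by 3 or more arrays, and other reference genes for the deviations by array were added after seeing the data.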

Additional observations from a re-analysis of the deposited data

How the results depend on the processing

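The number of subunits called between hippocampus and cortex was 3, and it moved by more than 1.5 times in 7 settings: to 1 in the 6 sham arrays alone and without both sham arrays numbered 1, to 9 after quantile normalization, to 5 with the replicate block in all 9 arrays and 0 with that block in the 6 sham arrays, and within 0 to 6 when single arrays were left out. Of all genes 7.80% were called in the 6 sham arrays alone and 14.0% after quantile normalization. The block gave 12.4% in all 9 arrays and 6.33% in the 6 sham arrays. After TFS 0 subunits were called in every setting run, the replicate block included. The median of all subunits between regions ran from -0.044 to -0.0097 over every setting run. Leaving out single arrays moved the region median of complex IV within -0.060 to -0.019 and of complex V within -0.045 to 0.00089, and the TFS median of complex II within 0.0082 to 0.026 and of complex III within 0.0056 to 0.052. Without both sham arrays numbered 1 the region median of complex II was -0.054, and the TFS medians of complexes II and III were 0.026 and 0.0056. Over members with no value shared by 3 or more arrays the region medians were 0.017 for complex I, -0.024 for II and 0.029 for V, and the TFS median of complex IV was 0.061. Median centring gave 0.0017 for complex II after TFS. Quantile normalization turned every TFS median: to -0.013 for all subunits, -0.011 for complex I, -0.021 for II, -0.0025 for III, -0.013 for IV and -0.017 for V. The cause of these changes was not tested.

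Single genes that turned were all near 0 and not called. Cox8a between regions was 0.0017 with array weights and 0.00096 without both sham arrays numbered 1, and -0.021 to 0.0035 over single arrays left out; Cox6a1 ran from -0.075 to 0.0060. After TFS, quantile normalization gave -0.013 for Cox4i1 and -0.019 for Sdhc, and Cox4i2 was 0.039 without both sham arrays numbered 1. Over single arrays left out, Cox4i2 ran from -0.087 to 0.039, Atp5mg from -0.018 to 0.0095, Cox7a2 from -0.016 to 0.016, Cox7b from -0.039 to 0.018 and Ndufa1 from -0.077 to 0.023. Of the other values of named genes 802 kept direction and side of the threshold, 13 passed it and 18 no longer did. The replicate block in the 6 sham arrays leaves few degrees of freedom, and 22 of the subunits have signals below the background limit, where differences can understate changes of transcript.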

Other observations

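The rule left out 26 genes on the array whose symbols mark pseudogenes or numbered copies of subunit genes. Of these 24 were bright enough to be tested and 13 had means above the background limit. By limma 0 of the 24 passed in either comparison. Their differences ran from -0.14 to 0.18 between hippocampus and cortex and from -0.21 to 0.094 after TFS. The largest value between regions was that of Atp5mc1l2, a copy of a subunit c gene, at 0.18 (limma adjusted p = 0.0734), with a mean below the limit. Ndufa10l1 had the highest value after TFS, at 0.094 (limma adjusted p = 0.923).

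Of the subunits 4 had a second row on the array. The other rows gave region differences of -0.015 for Atp5f1e, 0.032 for Atp5mk, 0.076 for Atp5pb and 0.046 for Ndufa1, on the same side of 0 as the brighter rows at -0.0030, 0.091, 0.061 and 0.12. After TFS they gave 0.017, -0.014, 0.032 and -0.024, where the brighter rows gave 0.035, 0.014, 0.046 and -0.024, so the 2 rows of Atp5mk lay on opposite sides of 0.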
